A study of Mus musculus with 24 samples.

Results

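The comparison described is that of Eed knockout (KO) with wild-type (WT) embryoid bodies (EBs) on day 7 of differentiation. Samples were chosen by their titles, which name the day, the genotype and the line, and 8 of the 24 samples of the series qualified. They were 4 KO arrays, with 2 arrays each of the embryonic stem cell (ESC) lines E14 and J1, against 4 WT arrays, with 2 arrays each of J1 and V6.5. RNA was measured on Affymetrix Mouse Gene 1.0 ST arrays, whose probe sets lie along whole transcripts. All 4 clones had been grown with LIF, a cytokine that keeps ESCs undifferentiated, on mitomycin-inactivated embryonic fibroblasts (feeder cells). They were then freed of feeder cells, placed in hanging drops without LIF and later moved to suspension culture. KO cells carried an Eed mutation throughout, and which stretch of the gene was deleted is not stated. Each genotype of a line is represented by 1 cell line, called a clone below, and J1 is the only line measured in both genotypes. In the comparison of KO E14 with WT V6.5, genotype and line therefore cannot be told apart. The J1 pair sets 1 KO clone against 1 WT clone, so genotype and clone cannot be told apart there either. Nothing in the labels ties the 2 arrays of a clone to cultures grown apart. The spread that the p-values rest on is that between these samples, and it may be technical.

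EED belongs to Polycomb repressive complex 2 (PRC2), the enzyme that places methyl groups on lysine 27 of histone H3 and is needed to keep many developmental genes silent. Polycomb repressive complex 1 (PRC1) binds chromatin that carries this mark. EBs are aggregates in which ESCs leave pluripotency and form derivatives of the germ layers, among them primitive red blood cells, endothelium, beating heart muscle and visceral endoderm. The title of the series puts the question of EED's part in shutting off pluripotency genes during differentiation.

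The values are log2 expression values of 19938 genes, and differences are KO minus WT on that scale, so that 1 is a 2-fold difference. A gene was called, and is said to have risen or fallen, where limma's adjusted p was under 0.05 and the difference was at least 1. Risen and fallen compare KO with WT on the same day and do not describe a change over time. On day 7, 870 genes were called, or 4.36% of those tested, of which 615 rose (3.08%) and 255 fell (1.28%). The median difference of all genes was −0.04. The shares of 3.08% and 1.28% are the background for the day 7 list counts below. All 4 KO arrays lay above all 4 WT arrays for 1934 genes (9.7%) and below them for 1421 (7.13%). Among the 870 called genes the groups did not overlap for 748, with 546 higher and 202 lower.

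One WT clone was heterogeneous, which bears on many results below. The 2 WT J1 arrays correlated at r = 0.962 across genes and lay at least 2-fold apart for 1256 genes (6.3%), against 58 to 163 genes in the other 3 pairs of arrays of a clone (r = 0.990 to 0.993). WT J1 replicate 1 was the higher for 416 of these genes, and genes of the forebrain and the epiblast led them. Otx2, a homeobox gene of the epiblast and forebrain, read 11.58 on WT J1 replicate 1 and 6.82 on replicate 2, and Pax6, a regulator of the neural tube and eye, 10.02 and 6.09. Replicate 2 was the higher for 840 genes, led by genes of platelets, macrophages, visceral endoderm and matrix. Pf4, which encodes a platelet chemokine, read 5.57 on replicate 1 and 11.11 on replicate 2, and Ttr, a transport protein made by visceral endoderm and liver, 8.54 and 12.61. Replicate 1 lay closest to WT V6.5 replicate 2 (r = 0.978) and replicate 2 to WT V6.5 replicate 1 (r = 0.980). Of the 870 called genes, 253 (29.1%) lay 2-fold apart between these 2 arrays. The cause of this gap was not tested.

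**Figure D1:**
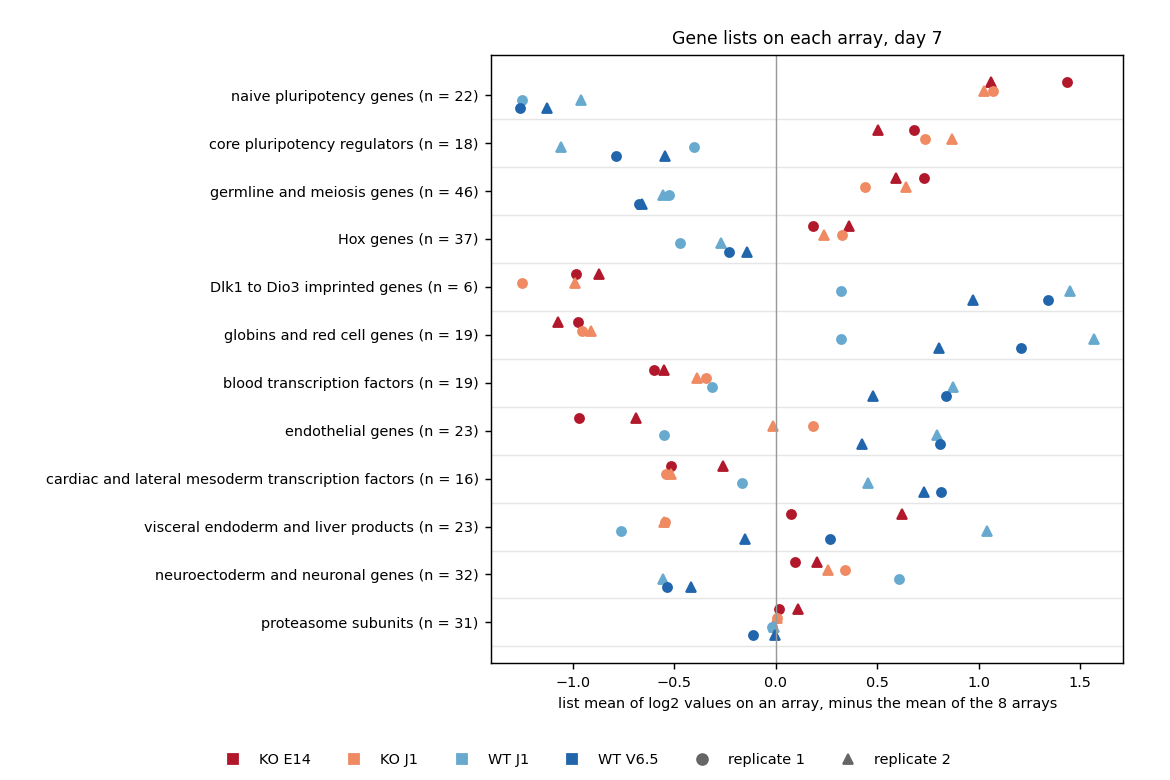
Mean log2 value of 12 gene lists on each of the 8 day 7 arrays, minus the mean of the 8 arrays (x axis), with the number of genes measured after each name. Colours mark the clones, circles replicate 1 and triangles replicate 2. The KO arrays lie right of the WT arrays for the naive pluripotency and germline lists and left of them for globins. WT J1 replicate 1 lies apart from the other WT arrays for the endothelial and neuronal lists, and the 2 WT J1 arrays lie at opposite ends of the WT range for visceral endoderm.

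Eed itself read 6.64 and 6.09 in KO E14 and 6.26 and 6.23 in KO J1, against 9.56 and 9.41 in WT J1 and 9.37 and 9.79 in WT V6.5. The KO arrays were 9.39-fold lower (difference −3.23, SE 0.23, adjusted p = 9.2e-10), and the groups did not overlap. The labels name embryonic stem cells as the cell type of every sample. The WT arrays carried genes of differentiated cells at levels far from those of day 0: Hbb-bh1, an embryonic beta-globin, averaged 12.90 on day 7 and 5.46 on day 0. The KO arrays averaged 5.49 for Hbb-bh1 on day 7 and 4.90 on day 0, and 11.80 for Pou5f1, the ESC transcription factor also called Oct4, against 8.68 in WT EBs.

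Regulators of pluripotency were higher in KO EBs. Pou5f1 read 11.97 and 11.49 in KO E14 and 11.80 and 11.96 in KO J1, against 8.98 and 7.95 in WT J1 and 8.85 and 8.94 in WT V6.5. This was 8.71-fold higher in KO (difference 3.12, SE 0.18, adjusted p = 1.4e-11), with no overlap between groups. Nanog, a homeobox factor of the naive state, read 12.82 and 12.53 in KO E14 and 11.83 and 12.13 in KO J1, against 9.67 and 8.22 in WT J1 and 8.14 and 9.05 in WT V6.5 (difference 3.56, SE 0.32, adjusted p = 4.5e-08). The 4 KO values all exceeded the highest WT value by more than 2 on the log2 scale. Sox2, which binds DNA together with Oct4, also serves neural progenitors, and WT J1 replicate 1 was high for it. It read 11.79, 11.09, 11.54 and 11.55 on the KO arrays, against 10.84, 7.97, 8.27 and 9.09 on the WT arrays (difference 2.45, SE 0.41, adjusted p = 0.00015).

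The rise covered most of the naive pluripotency list and part of the core list. Of 22 naive genes, 18 rose and none fell (background 3.08% and 1.28%), with a median difference of 2.28. Zfp42 (Rex1), a zinc-finger marker of naive ESCs, read 10.52, 9.80, 10.19 and 9.95 in KO, against 6.23, 6.15, 5.40 and 6.28 in WT, a 17.2-fold difference (4.10, SE 0.41, adjusted p = 1.5e-07). Nr0b1, a nuclear receptor of ESCs, had the largest rise of the genes tested, at 32.1-fold (difference 5.00, SE 0.45). It read 11.37, 10.59, 11.62 and 11.29 in KO, against 6.14, 5.99, 5.80 and 6.91 in WT. Dppa5a (4.27), Fbxo15 (3.97), Tcl1 (3.82), Jam2 (3.58) and Esrrb (3.57) followed. Klf2 and Klf4, Krüppel-like factors that sustain the naive state, rose less, by 1.07 and 1.33, and WT J1 replicate 2 reached 9.37 for Klf2, within the KO range of 9.01 to 9.94. Of 18 core regulators, 9 rose and none fell (median 0.88), among them the chromatin proteins Dppa2 (4.29) and Utf1 (3.31). Dppa2 read 12.28, 12.10, 12.43 and 12.41 in KO, against 8.16, 8.32, 7.36 and 8.23 in WT, so that the spread within each genotype was below 1. Outside these lists Zfp980 (4.69) and Zfp640 (4.22), both zinc-finger genes, Triml2 (3.78) and the histone gene H2ac1 (3.61) rose.

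The bases before the starts of Nanog and Zfp42 are shown because both genes rose together with Pou5f1 and Sox2, whose products bind octamer and Sox motifs. Each is the 250 bases upstream of a RefSeq start (GRCm38.p6), given 5′ to 3′ on the gene's strand. Capitals mark a composite octamer-Sox motif (TTTGCAT, any base, ACAA, any base, G), the octamer (ATGCAAAT), CCACCC and CCAAT, each searched on both strands. Nanog has 2 RefSeq starts, and the window of the second (chr6:122707315-122707564, plus strand) holds the composite motif from 151 to 138 bases before the start. Zfp42 (chr8:43307010-43307259, minus strand) holds an octamer on the opposite strand from 186 to 179 bases before the start.
Nanog: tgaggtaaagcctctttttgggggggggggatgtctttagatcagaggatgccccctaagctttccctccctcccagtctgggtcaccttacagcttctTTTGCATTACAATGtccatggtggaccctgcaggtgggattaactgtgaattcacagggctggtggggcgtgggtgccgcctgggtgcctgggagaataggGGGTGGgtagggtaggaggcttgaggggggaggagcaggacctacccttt
Zfp42: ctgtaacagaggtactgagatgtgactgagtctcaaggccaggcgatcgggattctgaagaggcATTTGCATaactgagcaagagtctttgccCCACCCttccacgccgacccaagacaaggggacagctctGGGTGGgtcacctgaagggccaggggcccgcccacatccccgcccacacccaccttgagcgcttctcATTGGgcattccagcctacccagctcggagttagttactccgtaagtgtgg
The composite motif was found in 3 of 32851 such windows (0.00913%), and the octamer in 526 (1.6%). A longer pattern matches fewer windows, so the 2 shares cannot be set against each other. The low share of the composite motif does not mark the Nanog site as unusual. Both windows of Nanog are among the 3, but they overlap and hold the same site, which was counted at both starts. Whether the motif is more frequent at genes that rose was not tested. CCACCC was found in 28.1% and CCAAT in 33.8% of windows. These matches describe the letters only. No window of Dppa5a was in the table used.

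Several signalling and DNA methylation genes rose as well, while most members of their lists were not called. Of 17 Nodal pathway genes, 6 rose and 2 fell (median −0.08). Lefty1 and Lefty2, secreted inhibitors of Nodal, rose 9.76-fold and 10.7-fold, and Tdgf1 (3.14), a Nodal co-receptor, Gdf3 (3.24), a related ligand, Pcsk6 (1.97), a protease that matures Nodal, and Nodal itself (1.91) rose as well. Lefty1 was higher in KO J1 (10.42 and 10.74) than in KO E14 (8.25 and 8.53), against 5.90 to 6.56 in WT. The second co-receptor gene, Cfc1, fell (6.70, 6.37, 6.46 and 6.36 in KO, against 8.24, 7.82, 9.21 and 9.29 in WT, difference −2.17), as did Foxh1 (−1.01), a DNA-binding partner of SMAD2, whose fall was seen in KO E14 against WT V6.5 (−2.04) and not in the J1 pair (0.03). Falls on this list numbered 1 when WT J1 replicate 1 or an array of KO E14 or WT V6.5 was left out.

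Of 19 genes of FGF and ERK signalling, 6 rose and 1 fell. Fgf4, the ligand that drives ESCs out of the naive state, rose by 2.52, and the ERK targets Spry4 (2.41), Etv5 (2.20) and Dusp6 (1.33) rose with it. The receptor gene Fgfr3 fell (−1.41). None of 11 genes of LIF and STAT3 signalling was called, and their differences ran from −0.55 in Jak2 to 0.44 in Jak1. Dnmt3l, a cofactor of the de novo DNA methyltransferases, read 10.26, 9.99, 10.35 and 10.73 in KO, against 6.16, 5.68, 6.06 and 6.51 in WT, an 18.7-fold rise. Tet1, which oxidises methylcytosine, rose by 1.18, so that 2 of 9 genes of DNA methylation and TET enzymes rose and none fell. The methyltransferase genes themselves did not pass the test (Dnmt1 0.00, Dnmt3a 0.39, Dnmt3b 0.36). Of 10 RNA-binding protein genes of ESCs, L1td1 (2.59), Mkrn1 (2.09) and Esrp1 (1.10) rose, with Esrp1 under the 2-fold minimum without KO J1 replicate 2 (0.96) or WT J1 replicate 1 (0.93). Of 11 primed epiblast genes only Zic5 was called (1.44), and this list depended on WT J1: 4 of its genes rose without replicate 1 and none without replicate 2. Otx2 (1.58, SE 0.64, adjusted p = 0.099) and Fgf5 (0.80, SE 0.36, adjusted p = 0.15) did not pass the test. Probe sets of 5 ESC microRNA genes showed no called difference (−0.25 to 0.07).

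**Figure D2:**
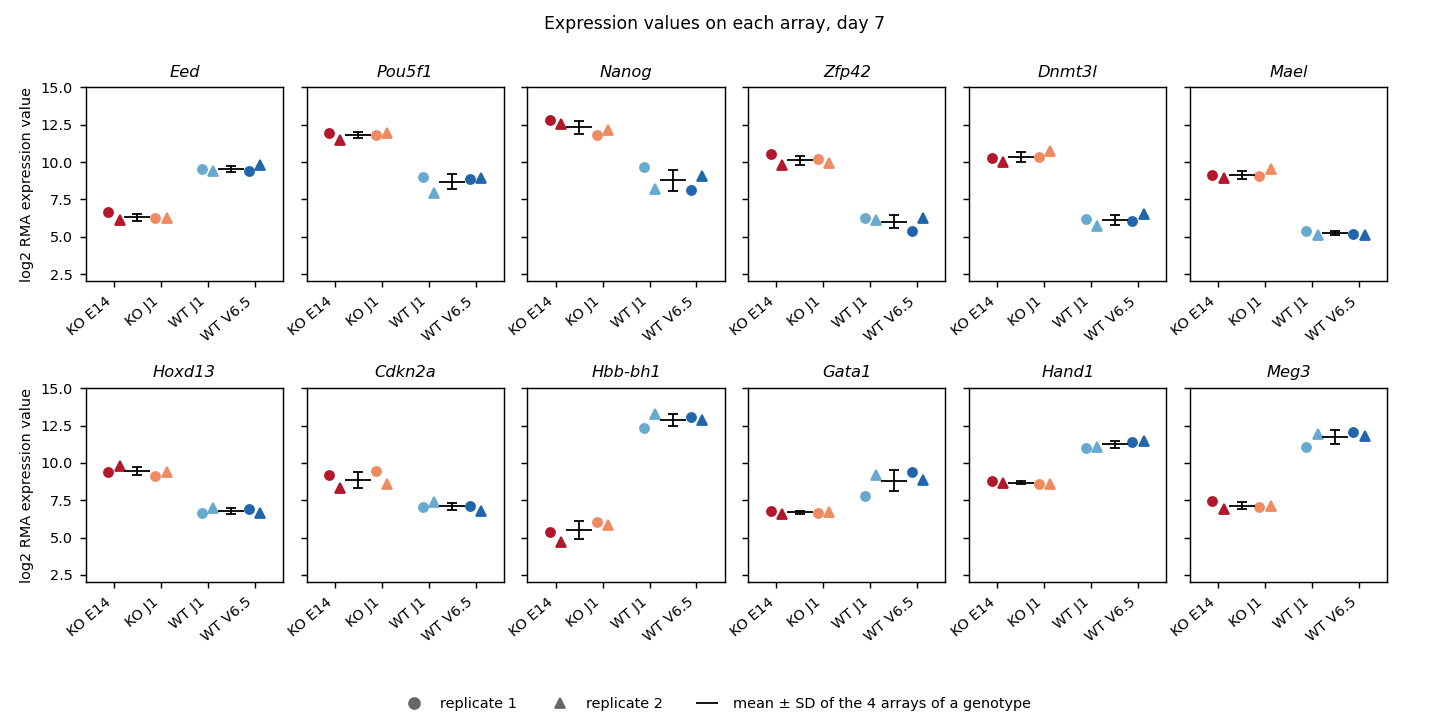
Log2 expression values (y axis) of 12 genes on the 8 day 7 arrays, by clone (x axis). Circles are replicate 1, triangles replicate 2, and bars the mean ± SD of the 4 arrays of a genotype. The KO arrays lie above the WT arrays for Pou5f1, Nanog, Zfp42, Dnmt3l, Mael, Hoxd13 and Cdkn2a and below them for Eed, Hbb-bh1, Gata1, Hand1 and Meg3.

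Germline genes were the broadest group to rise outside the pluripotency lists. Of 46 germline and meiosis genes, 22 rose and none fell (median 0.92; background 3.08% and 1.28%). For 32 of the 46 the 4 KO arrays lay above the 4 WT arrays, against 9.7% of all genes. Mael, which silences transposons in germ cells, read 9.11, 8.91, 9.06 and 9.54 in KO, against 5.41, 5.13, 5.18 and 5.14 in WT (15.3-fold, difference 3.94, SE 0.28, adjusted p = 1.5e-09). The KO arrays were thus all far above the narrow WT range. Tdrd12 (3.16), of the piRNA pathway, the germ cell transcription factor Sohlh2 (2.95), Hsf2bp (2.75), which acts in meiotic recombination, and the RNA-binding gene Dazl (2.54) also rose. So did the synaptonemal complex gene Sycp3 (2.25) and the RNA helicase gene Ddx4 (2.23). On day 0 Tdrd12 averaged 10.00 in KO and 10.20 in WT, and Hsf2bp 9.66 and 9.81. By day 7 their KO means had moved by −0.89 and −0.60 and their WT means by −4.25 and −3.50. Mael (10.09 and 8.02) and Sohlh2 (8.68 and 7.09) had higher means in KO than in WT on day 0. Dazl was higher in KO E14 (8.35 and 8.64) than in KO J1 (7.28 and 7.69), and all 4 lay above the WT range of 5.36 to 5.53.

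Other germ-cell and early-embryo families rose in part. Of 18 oocyte genes, Ooep (2.67) and Khdc3 (1.40), of the maternal complex under the egg membrane, rose. Of 6 Pramel genes, Pramel13 (2.97) and Pramel1 (1.33) rose, and of 8 Rhox homeobox genes Rhox9 (2.87), Rhox6 (1.68) and Rhox13 (1.37), 1 of which was called without the KO E14 clone. Rhox9 read 10.58 and 11.94 in KO E14 and 9.65 and 9.67 in KO J1, against 7.48, 8.97, 7.05 and 6.84 in WT. Members of these families have near-identical copies that may share probes, so a signal is uncertain as to the copy. None of 6 two-cell-like genes was called; Tdpoz3 read 5.27 and 6.95 in KO E14, 4.45 and 4.44 in KO J1 and 4.23 to 4.56 in WT.

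Among Polycomb genes, Jarid2, which guides PRC2 to its targets, rose 2.23-fold (12.13 ± 0.11 in KO, against 10.97 ± 0.36 in WT; SD, n = 4 each), and Epop, an ESC cofactor of PRC2, rose by 1.07. The catalytic subunit genes Ezh2 (0.38) and Ezh1 (−0.16) and the core subunit gene Suz12 (0.34) were not called. Of 20 PRC1 genes, 4 rose: Phc1 (1.35), also on the core pluripotency list, Bmi1 (1.23), Scml2 (1.07) and Cbx7 (1.04). Scml2 differed by 2.09 in the E14 and V6.5 pair and by 0.04 in the J1 pair, and lost its call without any single WT array and without each KO E14 array in turn. Cbx7 was under the 2-fold minimum without WT J1 replicate 1 (0.94) or KO J1 replicate 2 (0.91), and Epop without WT J1 replicate 2 (0.99). Rises on the PRC1 list numbered 2 without WT J1 replicate 1 and 1 without the WT J1 clone.

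Some Hox genes rose and 1 fell. Hox genes pattern the body axis and are classical PRC2 targets. Of 37 measured, 10 rose and 1 fell (median 0.48). Hoxd13 read 9.40, 9.81, 9.14 and 9.42 in KO, against 6.62, 7.01, 6.90 and 6.62 in WT (6.31-fold, difference 2.66, SE 0.20, adjusted p = 2.3e-09). Hoxd11 (2.19), Hoxd10 (2.13), Hoxa11 (2.03), Hoxa10 (1.87), Hoxc12 (1.56), Hoxa9 (1.53), Hoxa5 (1.35), Hoxc13 (1.34) and Hoxc11 (1.05) made up the rest of the rises. Hoxb2 fell (−1.19) with 7.45 to 8.11 in KO, against 8.31 and 8.19 in WT J1 and 9.76 and 9.78 in WT V6.5, and it was not called without either WT V6.5 array or the KO E14 clone. Of 10 Meis, Pbx and related cofactor genes, Pknox2 (−1.24) and Pbx3 (−1.08) fell, with Pbx3 under the 2-fold minimum without KO E14 replicate 1 (−0.88), the KO E14 clone (−0.78) or the WT J1 clone. Among 6 CDK inhibitor genes, Cdkn2a, which encodes p16 and p19ARF and is a known Polycomb target, rose 3.45-fold (9.18, 8.31, 9.47 and 8.56 in KO, against 7.05, 7.39, 7.14 and 6.80 in WT), and its neighbour Cdkn2b rose by 1.08 (0.94 and not called without KO E14 replicate 1). Cdkn1c, which is imprinted, was not called (−0.07, SE 0.33, adjusted p = 0.92), and its sign changed when a KO J1 or WT V6.5 array was left out.

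Noncoding RNAs of the imprinted region between Dlk1 and Dio3 were lower in KO EBs. In this region the maternal chromosome expresses Meg3, Rian and a long cluster of small RNAs, and the paternal chromosome the protein genes Dlk1, Rtl1 and Dio3. Meg3 read 7.48, 6.91, 7.02 and 7.12 in KO, against 11.09, 11.94, 12.09 and 11.84 in WT, a 24.3-fold fall (difference −4.61, SE 0.24, adjusted p = 4.9e-12). Rian fell by 3.35 on the log2 scale, and the small RNA gene DQ267102 by 4.66. The 3 protein genes were not called: Dlk1 differed by 0.10 (SE 0.29), Rtl1 by −0.35 (SE 0.15) and Dio3 by 0.60 (SE 0.35). Dlk1 was abundant in both genotypes, at 11.67 to 12.42 in KO and 10.72 to 12.57 in WT.

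The list of all 47 genes tested between and including Dlk1 and Dio3 was taken by RefSeq position after values had been seen. Of its 40 microRNA genes, 20 fell and none rose, with a median of −0.97, and 39 had a difference below 0. For 34 of the 40 the KO arrays all lay below the WT arrays, against 7.13% of all genes. All 4 other noncoding RNAs fell. Leaving out single arrays or clones gave 18 to 28 falls among the 47. Mir377 read 4.04, 4.14, 4.06 and 4.07 in KO, against 6.09 and 7.01 in WT J1 and 8.34 and 8.79 in WT V6.5 (11.1-fold lower), and Mir382 (−2.97), Mir380 (−2.60) and Mir300 (−2.27) followed. The KO values of Mir377 were near-constant at a low level, while the WT lines differed from each other. Probe sets named for these genes detect longer RNA as well, and mature microRNAs were not measured.

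**Figure D3:**
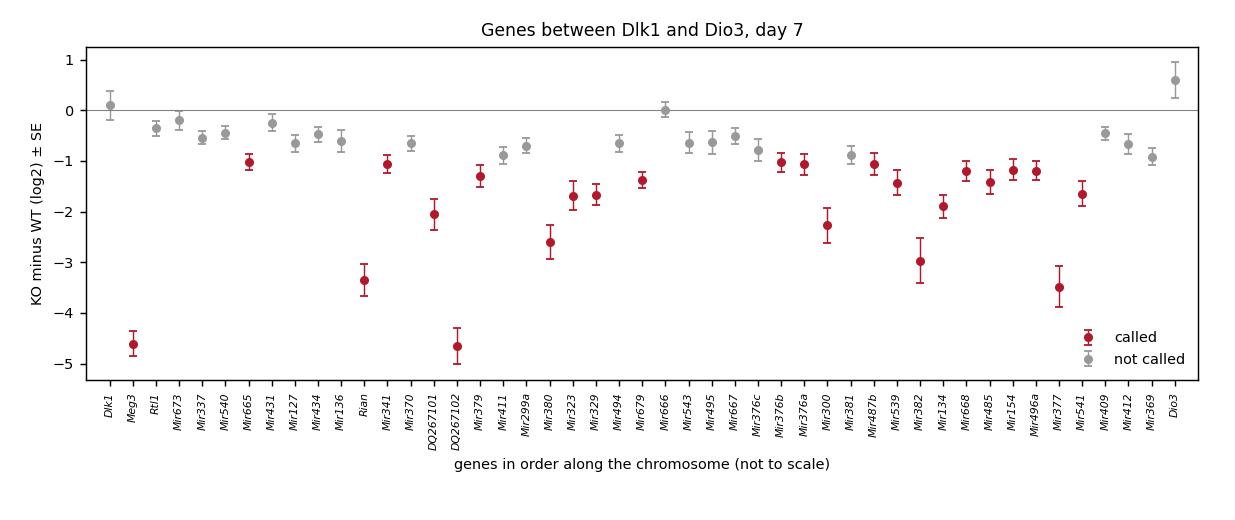
KO minus WT difference on the log2 scale ± SE (y axis) on day 7 for 47 genes between and including Dlk1 and Dio3, in chromosomal order and not to scale. Red points were called (24, all lower in KO) and grey points were not. The protein genes Dlk1 (0.10), Rtl1 (−0.35) and Dio3 (0.60) are among the grey points.

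The mature sequences of the 4 microRNA genes that fell most are shown to give the products of this region by their seeds, the bases that pair with targets. Sequences are from RefSeq (GRCm38.p6), 5′ to 3′, with bases 2 to 8 (the seed) in capitals. All lie on the plus strand of chromosome 12, Mir380 first (chr12:109711806-109711863, both arms) and Mir377 last (chr12:109740515-109740574).
miR-377-5p: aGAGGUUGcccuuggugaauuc
miR-377-3p: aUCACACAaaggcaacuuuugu
miR-382-5p: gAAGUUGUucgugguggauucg
miR-382-3p: uCAUUCACggacaacacuuuuu
miR-380-5p: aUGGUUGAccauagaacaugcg
miR-380-3p: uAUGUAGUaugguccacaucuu
miR-300-5p: uUGAAGAGagguuauccuuugu
miR-300-3p: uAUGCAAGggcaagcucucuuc
No 2 of these 8 seeds are alike, so these genes do not form a seed family. Of 25 imprinted genes elsewhere only Nnat fell (−1.68), with KO E14 replicate 2 at 10.66 next to the WT range of 10.97 to 11.66; none fell without the KO J1 clone. Igf2 (−0.22) and Peg3 (−0.23) were not called.

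Primitive red blood cell genes showed the largest differences of the comparison. Hbb-bh1 read 5.38, 4.70, 6.03 and 5.87 in KO, against 12.37, 13.29, 13.07 and 12.86 in WT, a 169-fold fall (difference −7.40, SE 0.32, adjusted p = 1.1e-13). Hbb-y, a further embryonic beta-type globin, fell 97.9-fold (5.23 to 6.38 in KO, against 11.74 to 13.14 in WT), and Hba-x, the embryonic alpha-type globin, 55.3-fold (6.16 to 7.19 in KO, against 11.87 to 13.23 in WT). The KO levels lay within 1 of those of day 0 in each case. Globin genes resemble each other, so probes may cross-detect copies. In bulk samples such as these, fewer cells of a type and less RNA per cell cannot be told apart.

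Windows of 250 bases before the starts of Hbb-y (chr7:103853208-103853457, minus strand) and Hba-x (chr11:32276350-32276599, plus strand) are shown because these 2 globin genes of different clusters fell together. Capitals mark the CACCC box (CCACCC), the CCAAT box and the TATA box (TATAAA), all known from globin promoters.
Hbb-y: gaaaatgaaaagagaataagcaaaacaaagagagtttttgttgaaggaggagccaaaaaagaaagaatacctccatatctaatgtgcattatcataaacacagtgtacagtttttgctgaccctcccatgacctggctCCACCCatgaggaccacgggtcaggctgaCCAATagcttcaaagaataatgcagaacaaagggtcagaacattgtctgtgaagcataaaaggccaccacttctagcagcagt
Hba-x: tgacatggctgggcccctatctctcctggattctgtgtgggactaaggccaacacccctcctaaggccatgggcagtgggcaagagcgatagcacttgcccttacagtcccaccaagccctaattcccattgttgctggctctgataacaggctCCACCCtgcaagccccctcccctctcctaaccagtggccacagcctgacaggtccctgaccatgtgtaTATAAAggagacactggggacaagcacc
CCACCC lies from 112 to 107 bases before the start in Hbb-y and from 96 to 91 in Hba-x, on the gene's strand in both. Hbb-y has CCAAT from 83 to 79 and Hba-x has TATAAA from 28 to 23. TATAAA was found in 12.4% of all windows. The AGATAA form of the GATA motif was searched as well and was found in neither window, against 9.99% of all windows. GATA forms with another first base were not counted over all windows. The printed letters hold 1 such form, TGATAA, in both windows, on the gene's strand in Hba-x and on the opposite strand in Hbb-y. Neither window thus lacks a GATA form. No window of Hbb-bh1 was in the table used.

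Of 19 globin and red cell genes, 11 fell and 1 rose (median −1.32). Alas2 (−3.66), the first enzyme of heme synthesis in red cells, Epb42 (−2.17) and Rhag (−2.12), of the red cell membrane, and the mitochondrial iron importer gene Slc25a37 (−2.10) fell. Alas2 was flat in KO (5.76 to 5.98) and spread widely in WT, at 7.96 and 11.11 on the 2 WT J1 arrays and 10.01 and 9.17 in WT V6.5. The member that rose was Rhd (1.22). Of 19 blood transcription factor genes, 10 fell and none rose. Gata1, the master regulator of red cells, read 6.81, 6.60, 6.66 and 6.74 in KO, against 7.78, 9.16, 9.37 and 8.87 in WT (4.27-fold lower), and its cofactor gene Zfpm1 (−1.84), Nfe2 (−1.70) and Klf1 (−1.58) fell as well. Runx1 (−1.27) and Spi1 (−1.09) fell too, but Spi1 read 8.50 on WT J1 replicate 2 and 6.12 to 6.97 on the other WT arrays. Without the KO E14 clone 6 genes of this list fell.

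Endothelial genes varied between the KO lines. Of 23, 5 fell and none rose: Aplnr (−2.82), a receptor of mesoderm and vessels, Nrp1 (−2.62), a VEGF co-receptor, Kdr (−2.23), the VEGF receptor, Tie1 (−1.16) and Egfl7 (−1.13). Kdr read 6.45 and 7.30 in KO E14 and 8.57 and 8.31 in KO J1, against 8.87 and 9.99 in WT J1 and 10.38 and 10.32 in WT V6.5. Cdh5, the vascular cadherin, read 6.83 and 7.78 in KO E14, 10.23 and 9.32 in KO J1, 7.95 and 10.96 in WT J1 and 11.17 and 10.24 in WT V6.5, and was not called (−1.54, SE 0.64, adjusted p = 0.11). KO E14 was the lowest clone for Cdh5, and WT J1 replicate 1 lay below both KO J1 arrays. Counts of falls for this list were 9 without WT J1 replicate 1, and 3 without WT J1 replicate 2, WT V6.5 replicate 1 or the KO E14 or WT V6.5 clone. Tie1 differed by 0.05 in the J1 pair and by −2.36 in the other pair, and lost its call when WT J1 replicate 2 or any array of KO E14 or WT V6.5 was left out. With the arrays of a line and day averaged, neither Tie1 (adjusted p = 0.13) nor Kdr (adjusted p = 0.058) was called by limma, and Kdr was not called without the KO E14 clone (−1.45).

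Genes of heart and lateral mesoderm fell in part. Of 16 transcription factor genes, 6 fell and none rose (median −0.71). Hand1, which acts in lateral mesoderm, heart and trophoblast, read 8.80, 8.66, 8.61 and 8.62 in KO, against 11.02, 11.03, 11.40 and 11.49 in WT (5.91-fold, difference −2.56, SE 0.14, adjusted p = 6.7e-12). Foxf1, of splanchnic mesoderm, fell 7.74-fold and Tbx20, a heart regulator, 6.95-fold. Mef2c (−1.58), Hand2 (−1.40) and Gata5 (−1.07) completed the list. Nkx2-5 (0.04) and Isl1 (−0.14) were not called and were at 7.84 to 8.62 on all 8 arrays. Of 28 cardiac and smooth muscle genes, 5 fell: Acta2 (−3.24), the smooth muscle actin, Tnni1 (−2.15), Actc1 (−1.77), Tnnc1 (−1.53) and Tnnt2 (−1.49). For Tnnt2, WT J1 replicate 1 (7.51) lay within the KO range of 7.24 to 7.58, and 8 genes of the list fell without that array.

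Matrix and mesenchymal genes moved both ways. Of 33, 6 fell and 2 rose, with Postn (−2.25), Zeb2 (−1.84) and the collagen gene Col1a1 (−1.65) among the falls and the limb and craniofacial homeobox gene Prrx1 among the rises (9.41, 10.95, 10.70 and 10.45 in KO, against 8.77, 7.91, 7.02 and 7.27 in WT). Postn lost its call when any of 5 of the 8 arrays was left out. Falls on the list numbered 3 without KO E14 replicate 1 and 2 without the KO E14 clone. Of the 5 feeder fibroblast markers, 3 fell (Col1a1, Col1a2 and Postn). Thy1 pointed the other way without being called (0.92, SE 0.25, adjusted p = 0.012), with 7.58 to 8.37 in KO, against 7.02 to 7.14 in WT and no overlap. The summed log2 level of the 5 ran from 39.8 to 43.6 in KO, against 41.1 to 49.5 in WT. The part of these markers in the results was not tested.

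Lists of the streak and the endoderm held 1 or 2 calls each. Of 15 primitive streak genes only Tcf15 (1.38), a gene of the epiblast and somites, rose. Of 14 endoderm transcription factor genes only Cdx2 fell (−1.23), with 7.61 ± 0.31 in KO, against 8.84 ± 0.56 in WT (SD, n = 4 each), and it was not called without WT V6.5 replicate 2 (−0.96). Of 23 visceral endoderm and liver products, Cubn, a receptor of absorptive visceral endoderm, rose by 2.70 (9.96, 10.58, 9.11 and 9.71 in KO, against 5.93, 7.66, 7.85 and 7.12 in WT), while Tdo2, which degrades tryptophan, fell (4.31 to 4.35 in KO, against 5.85 to 9.16 in WT). The 2 thus moved in opposite directions. Ttr (9.39, 11.10, 7.83 and 8.02 in KO, against 8.54, 12.61, 10.97 and 10.50 in WT) and Afp were not called, and falls on this list numbered 6 without WT J1 replicate 1 and 4 without KO E14 replicate 2. Of 11 parietal endoderm genes, Srgn (3.79), a proteoglycan core protein, and Lama1 (1.10) rose, with Lama1 not called when WT J1 replicate 1 or an array of KO E14 was left out. Srgn and Cubn already had higher means in KO on day 0, before differentiation. Srgn averaged 10.29 in KO and 7.79 in WT on that day, and Cubn 8.40 and 6.27.

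Of 22 trophoblast genes, 7 rose and 2 fell, and most of the rises lay with KO E14. Krt7 read 9.70 and 10.53 in KO E14 and 8.81 and 8.56 in KO J1, against 6.80 to 8.38 in WT. Syna, a fusion protein of placenta, read 8.99 and 10.49 in KO E14, 7.26 and 6.85 in KO J1 and 6.25 to 6.68 in WT, and was not called without that KO clone (0.54). Without it 3 genes of the list rose. Tfap2c, which serves both trophoblast and germ cells, was alike in the KO lines (8.60 to 8.79 in KO, against 6.42 to 7.43 in WT, difference 1.77). The 2 falls were Hand1 and Cdx2, named above.

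Of 32 neuroectoderm and neuronal genes, 5 rose: Nefl (1.79), Stmn2 (1.75), Ina (1.58), En2 (1.29) and Crabp1 (1.19). Without WT J1 replicate 1, which was high in forebrain genes, 12 rose, and without the WT V6.5 clone 2. Stmn2 read 11.44, 10.73, 10.75 and 10.77 in KO, against 10.16, 8.37, 8.72 and 9.46 in WT. Between days 0 and 7, KO means moved by −0.20 (Nefl), −1.19 (Stmn2), −1.30 (Ina), −1.06 (En2) and 0.17 (Crabp1). WT means moved by −2.25, −2.51, −3.20, −1.03 and −0.05 in the same order. Ina was not called without the KO J1 clone (0.59). Pax6 (0.42) and Sox1 (−0.21) were not called.

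Signalling genes changed in both directions. Of 21 BMP genes, 5 fell and 3 rose; the ligand genes Bmp5 (−2.33) and Bmp2 (−1.76) and the target genes Msx2 (−1.39), Msx1 (−1.32) and Smad6 (−1.15) fell, and the antagonist gene Grem1 (1.48), Bmp8b (1.08) and Id4 (1.02) rose. Rises numbered 1 without WT V6.5 replicate 2 or KO E14 replicate 1, and falls 2 without the WT V6.5 clone. Bmp5 read 7.54, 8.73, 8.65 and 7.79 in KO, against 9.48, 10.60, 11.11 and 10.86 in WT. Of 22 Wnt genes, Wnt2 (−2.03) and the potentiator Rspo3 (−1.36) fell and the antagonist Dkk1 rose (1.46), with 4 falls without WT J1 replicate 2. In the retinoic acid pathway, Aldh1a2 (1.76) and Rdh10 (1.36), enzymes that make the ligand, and Crabp1 rose among 13 genes.

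None of 31 proteasome subunit genes was called (differences −0.22 to 0.35). Of 24 cell cycle and replication genes Ccne1 (1.26) and Ccnd2 (1.13; 0.99 without KO E14 replicate 2), both cyclins, rose, and of 18 glycolysis and hypoxia genes Aldoc fell (−1.03; not called without KO J1 replicate 1 or WT J1 replicate 2). Pmaip1 (1.97), an apoptosis gene, rose among 14 p53 targets. Of 10 interferon response genes, Ddx58 (1.47), Rsad2 (1.23) and Oasl2 (1.13) rose, and their calls lay in the E14 and V6.5 pair: 6 of the 10 rose in that pair and none in the J1 pair, and none was called without the KO E14 or WT V6.5 clone. Oasl2 also lost its call when either WT V6.5 array or replicate 2 of a KO clone was left out. Without the KO J1 clone Rsad2 (1.26) and Oasl2 (1.36) were not called either. WT J1 replicate 2 read 8.05 for Rsad2, against 6.19 to 6.57 on the other WT arrays. None of 3 Y-linked genes was called in the genotype comparison, but Uty read 7.89 and 7.11 in WT V6.5 and 8.36 to 9.23 in the other clones.

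The comparison was then made within pairs of lines that share no array. J1, the pair of 1 named line, gave 856 calls (4.29%), with 580 rises (2.91%) and 276 falls (1.38%). KO E14 against WT V6.5 gave 1332 (6.68%), with 893 rises (4.48%) and 439 falls (2.2%). Both pairs called 492 genes, 364 higher in both, 125 lower in both and 3 in opposite directions. Those with 1 direction made up 57.1% of the J1 calls and 36.7% of the calls of the other pair. Of the 870 genes of the whole comparison, 488 were called in both pairs the same way. Pou5f1 differed by 3.41 in the J1 pair and 2.83 in the other, Nanog by 3.04 and 4.08, Mael by 4.03 and 3.85, Meg3 by −4.45 and −4.77 and Hbb-bh1 by −6.88 and −7.92. Without WT J1 replicate 1 the J1 pair gave 1651 calls, 867 higher and 784 lower.

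**Figure D4:**
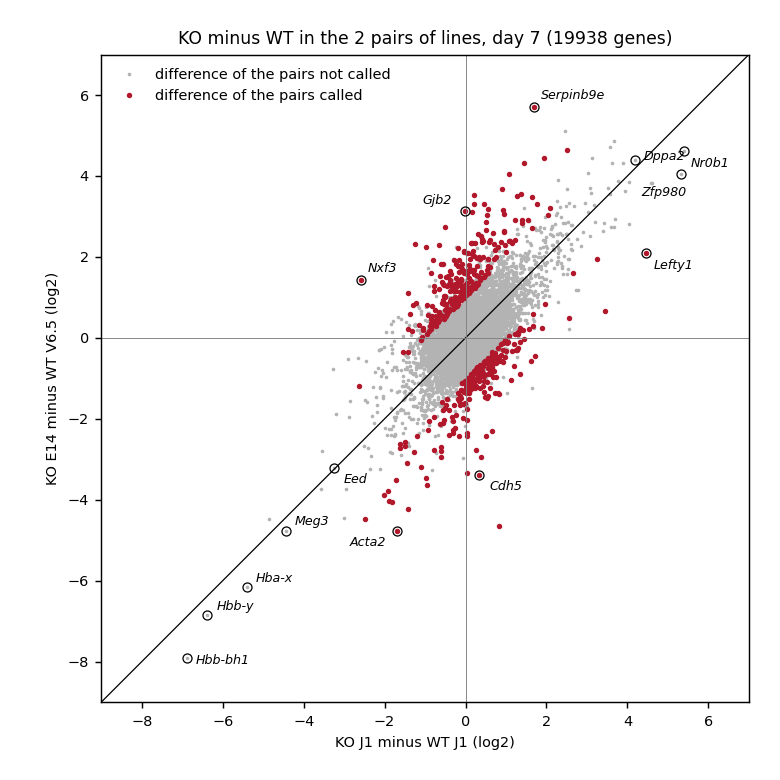
KO minus WT difference on the log2 scale in the J1 pair (x axis) and in KO E14 against WT V6.5 (y axis) for 19938 genes on day 7, with the line of equal differences. Red points are the 468 genes for which the difference between the pairs was itself called. The embryonic globins, Meg3, Eed, Dppa2 and Nr0b1 lie along the diagonal, while Cdh5, Gjb2, Nxf3 and Serpinb9e lie far from it.

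The difference between the 2 pairs (E14 and V6.5 minus J1) was tested directly and called for 468 genes (2.35%), with 253 above 0 (1.27%) and 215 below (1.08%). Of the 23 endothelial genes, 7 were called below 0, and the median of the list was −1.16. Cdh5 differed by −3.40 in KO E14 against WT V6.5 and by 0.33 in J1 (difference of the pairs −3.73, SE 0.83, adjusted p = 0.018), and Tek, the angiopoietin receptor, by −2.77 and 0.27. Above 0 were Serpinb9e, a serine protease inhibitor gene of the placenta, at 5.71 in KO E14 against WT V6.5 and 1.68 in J1, the visceral endoderm genes Afp (2.74 and −0.52) and S100g (2.32 and −1.26), and Sema3c (3.53 and 0.20), a guidance signal. Nxf3 had opposite signs, 1.44 and −2.59, and read 8.45 and 9.01 in WT J1 and 5.13 to 6.76 elsewhere. This count ran from 229 to 1297 as single arrays were left out, with 229 without WT V6.5 replicate 2, 284 without KO J1 replicate 2, 857 without WT J1 replicate 2 and 1297 without WT J1 replicate 1.

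Within the KO genotype, 199 genes differed between the lines (0.998%), 148 higher (0.742%) and 51 lower (0.256%) in KO E14 than in KO J1. Gjb2, a gap junction gene, read 9.10 and 9.53 in KO E14 and 6.69 and 6.28 in KO J1, and Rxfp1, the relaxin receptor gene, 5.02 and 4.97 in KO E14 and 8.04 and 7.69 in KO J1. WT arrays were at 6.11 to 6.69 for Gjb2 and 4.31 to 4.51 for Rxfp1, so that each was raised in 1 KO line. Among the trophoblast genes, 9 of 22 were called higher in KO E14 than in KO J1, while 5 of 23 endothelial genes were called lower. Serpinb9e (4.05), Serpinb9d (2.86), Arhgef6 (2.72) and Syna (2.68) were other genes higher in KO E14, and Trh (−2.59) and Lefty1 (−2.19) were lower. Members of the Serpinb9 family have near-identical copies and are uncertain as to the copy. The arrays of KO J1 were apart for Serpinb9e, at 7.76 and 5.12. Without KO J1 replicate 2, 115 genes were called between the KO lines.

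Within the WT genotype, 198 genes differed (0.993%), 118 higher (0.592%) and 80 lower (0.401%) in WT V6.5 than in WT J1. Mid1 (2.47), Hapln1 (2.66), a matrix link protein gene, and Ccdc80 (2.46) were higher in WT V6.5, and Nxf3 (−3.49), Eif2s3y (−2.05), Gstk1 (−2.05) and Epha7 (−1.98) were lower. Because the 2 WT J1 arrays stood apart, this count was 586 without WT J1 replicate 1, 787 without replicate 2 and 121 without WT V6.5 replicate 2.

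**Figure D5:**
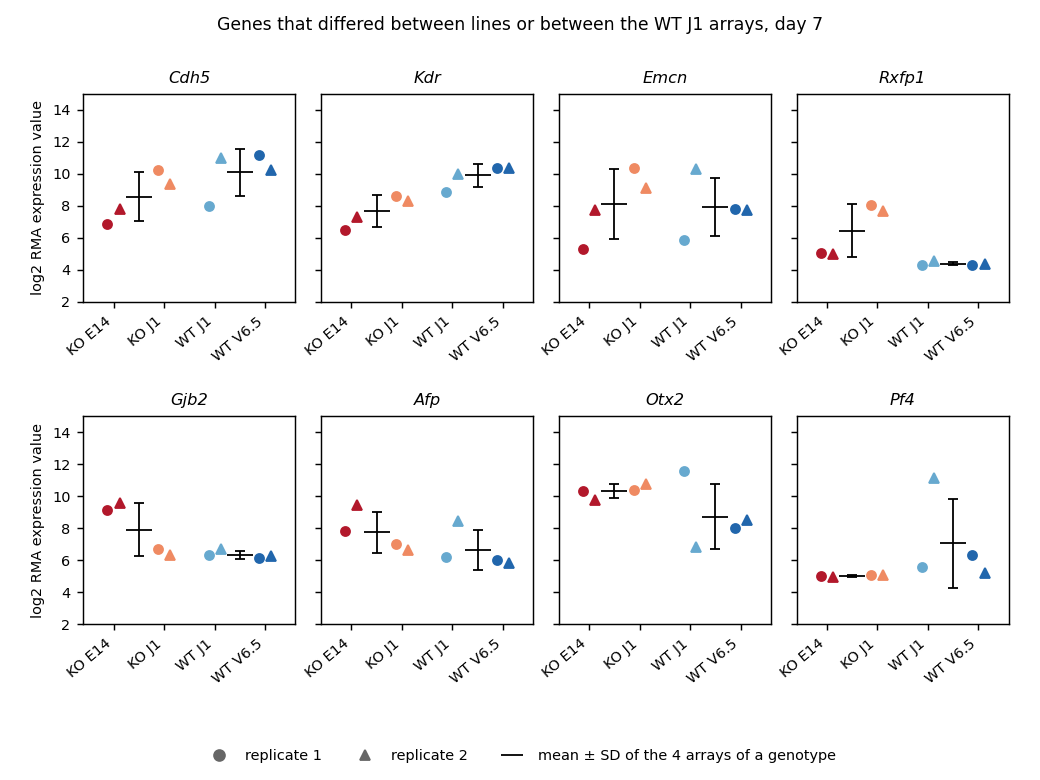
Log2 expression values (y axis) of 8 genes on the 8 day 7 arrays, by clone (x axis). Circles are replicate 1, triangles replicate 2, and bars the mean ± SD of the 4 arrays of a genotype. Cdh5, Kdr and Emcn are higher in KO J1 than in KO E14, Gjb2 is high in KO E14 and Rxfp1 in KO J1, and the 2 WT J1 arrays lie apart for Otx2 and Pf4.

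Day 7 was set against the other days by testing whether the KO minus WT difference had changed. On day 0, before differentiation, 110 genes were called (0.552%; 0.461% higher in KO and 0.0903% lower), and on day 3, 151 (0.757%; 0.667% higher and 0.0903% lower). The difference of day 7 departed from that of day 3 for 511 genes (2.56%), 272 upward (1.36%) and 239 downward (1.2%), and from that of day 0 for 673 (3.38%), 384 upward (1.93%) and 289 downward (1.45%). Of the 870 day 7 calls, 104 (12%) were already called in the same direction on day 3 and 62 (7.13%) on day 0, which are 68.9% of the day 3 calls and 56.4% of the day 0 calls. These comparisons use the day 7 arrays in common.

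Genes called on day 7 differed in when the genotypes parted. Genes that rose on day 7 had a median difference of 0.53 on day 3 and 0.39 on day 0, and genes that fell had −0.01 and −0.03, against −0.00066 and −0.03 for all genes. The Pou5f1 mean in KO was 12.39, 12.36 and 11.80 on days 0, 3 and 7, against 12.46, 12.48 and 8.68 in WT. Zfp42 parted earlier, at 11.09, 9.96 and 10.12 in KO, against 10.40, 7.71 and 6.01 in WT. Mael was apart on all 3 days, at 10.09, 9.56 and 9.16 in KO, against 8.02, 6.70 and 5.22 in WT. In these genes the KO means of day 7 lay within 1 of those of day 0, and the WT means of day 7 lay more than 2 below theirs.

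Among the largest departures from day 3 were Dppa2 (3.57), Utf1 (3.45), Nr0b1 (3.40), Slc7a3 (3.26), an amino acid transporter gene, and Serpinb9e (3.54) upward. Hbb-bh1 (−7.32), Hbb-y (−6.68), Hba-x (−5.55), Tbx20 (−4.88) and Acta2 (−4.02) were the largest downward. Tbx20 had been higher in KO on day 3 (2.09) and was lower on day 7 (−2.80), and its WT mean was 6.28 on day 3 and 10.47 on day 7. The departures from day 0 were led by Nr0b1 (5.05), Zfp980 (4.09), Lncenc1 (3.89), a noncoding RNA of ESCs, Dppa2 (3.80) and Serpinb9e (3.69) upward, and downward by the same 3 globins, Acta2 (−4.81) and Postn (−4.07). Acta2 averaged 10.45 in KO and 8.88 in WT on day 0, and 8.54 in KO and 11.78 in WT on day 7. Postn, a feeder fibroblast marker, averaged 8.75 in KO and 6.93 in WT on day 0, and 8.56 and 10.81 on day 7. Both departures from day 0 thus include a higher KO mean on that day.

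By list, 10 of 22 naive genes and 8 of 18 core regulators had departed upward from day 3, and 16 and 8 from day 0. Downward departures from day 3 numbered 10 of 19 globin and red cell genes, 9 of 19 blood transcription factors and 8 of 16 heart and lateral mesoderm factors. Germline genes had parted in part before: 12 of 46 were called higher in KO on day 0, 9 on day 3 and 22 on day 7. Of the 46, 9 departed upward from day 3. Of the 37 Hox genes, 2 were called higher on day 0, 4 on day 3 and 10 on day 7. Meg3 was lower on all 3 days (−2.20, −3.96 and −4.61), with KO means of 8.03, 7.07 and 7.13, against 10.23, 11.03 and 11.74 in WT. Of the 25 other imprinted genes, 5 had been called higher in KO on day 3, and 7 departed downward by day 7. Igf2, a growth factor gene, differed by 2.36 on day 3 and −0.22 on day 7.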

How the data were processed

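Total RNA of 24 samples had been hybridised to Affymetrix Mouse Gene 1.0 ST arrays. The deposited values are on a log2 scale, and per the submitters' processing notes the authors made them with Affymetrix Power Tools and RMA, which corrects background, normalizes across arrays and summarises probes; no version or setting is named there. Of 35556 probe sets, 21789 were listed with 1 gene symbol, 1621 with several and 12146 were not listed. The probe set with the highest mean was kept for each of 19938 genes. Array data carry no read depth, and 2 arrays per clone limit the precision. limma 3.58.1 (R 4.3.3) was fitted over all 24 arrays with 6 genotype-by-day means and the clone as a random block (correlation 0.161). Comparisons of lines used 12 line-by-genotype-by-day means. P-values were Benjamini-Hochberg adjusted over all genes, and calls needed adjusted p under 0.05 and a 2-fold difference. The fits were tested on simulated data.

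Genes were named by a rule: Eed; the pluripotency factors Pou5f1, Nanog, Sox2 and Zfp42; the CDK inhibitors Cdkn1c and Cdkn2a; the 15 largest called rises and falls with no overlap of arrays; up to 4 called members of each list, or its 2 largest changes where none was called; and the 5 largest called differences each way between pairs, lines and days, predicted genes passed over. Further list members, the genes that parted the WT J1 arrays and the 47 genes of the imprinted region were named after their values were seen. The samples, lists and rule were chosen with earlier results of these data known. Alternatives covered filters, normalization, blocks, weights and leaving out arrays or clones. Sequences came from RefSeq tables of GRCm38.p6.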

Additional observations from a re-analysis of the deposited data

Results flagged for a closer look

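In 258 groups of 4 arrays (129 named genes in each genotype), 10 had 1 array set apart from the other 3 by a gap above Dixon's critical value for 4 samples. Chance gives about 1 in 20 such groups. In KO EBs, KO E14 replicate 2 was low for Triml2 (9.72), Gdf3 (9.97) and Klf1 (6.20). KO E14 replicate 1 was high for Stmn2 (11.44), KO J1 replicate 2 for Esrp1 (9.85) and KO J1 replicate 1 for Hoxd10 (9.38). In WT EBs, WT J1 replicate 2 was low for Pou5f1 (7.95). WT V6.5 replicate 1 was low for Zfp42 (5.40) and Dppa2 (7.36) and high for Jak1 (10.30).

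The KO minus WT difference of KO E14 and WT V6.5 departed from that of the J1 pair for 468 genes by limma's test of the difference. Those named were Cdh5 (−3.73), Rasgrp3 (−3.39), Klhl4 (−3.31), Acta2 (−3.07) and Tek (−3.04), and on the other side Serpinb9e (4.03), Nxf3 (4.02), S100g (3.58), Sema3c (3.33) and Afp (3.26).

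By the same kind of test the difference of day 7 departed from that of day 3 for 511 genes, among them Hbb-bh1 (−7.32), Hbb-y (−6.68), Hba-x (−5.55), Tbx20 (−4.88) and Acta2 (−4.02), and upward Dppa2 (3.57), Serpinb9e (3.54), Utf1 (3.45), Nr0b1 (3.40) and Slc7a3 (3.26). It departed from that of day 0 for 673 genes, among them Hbb-bh1 (−6.84), Hbb-y (−6.50), Hba-x (−5.54), Acta2 (−4.81) and Postn (−4.07), and upward Nr0b1 (5.05), Zfp980 (4.09), Lncenc1 (3.89), Dppa2 (3.80) and Serpinb9e (3.69).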

How the results depend on the processing

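The 870 day 7 calls became 3250 with no fold minimum. Without that minimum the J1 pair had 2840 calls, KO E14 against WT V6.5 3734, the difference of the pairs 762, KO E14 against KO J1 651, WT V6.5 against WT J1 804, day 7 against day 3 1049 and day 7 against day 0 1617. With the arrays of a line and day averaged, 327 genes departed from day 3. Leaving out 1 array gave 786 to 1081 calls for the day 7 comparison, 634 to 1651 for the J1 pair, 1275 to 1373 for the E14 and V6.5 pair, 229 to 1297 for the difference of the pairs, 115 to 251 between KO lines, 121 to 787 between WT lines, 397 to 843 against day 3 (843 without WT J1 replicate 1) and 530 to 964 against day 0. The day 7 count was 782 without the KO E14 clone, 985 without KO J1, 1165 without WT J1 and 816 without WT V6.5. Cdkn1c, which ran from −0.39 to 0.17 as single arrays were left out, changed sign to 0.10, 0.15, 0.17 or 0.08 without KO J1 replicate 1, KO J1 replicate 2, WT V6.5 replicate 1 or WT V6.5 replicate 2, and to 0.60 or 0.55 without the KO J1 or WT V6.5 clone. Mir302a (−0.73 to 0.049) changed to 0.049 without WT J1 replicate 1 and 0.02 without WT V6.5 replicate 2, and Uty to −0.38 without the WT V6.5 clone. The median of the p53 list was −0.12 without the KO E14 clone, and that of the Wnt list (−0.25 to 0.0032) 0.0032 without WT J1 replicate 1. The causes were not tested. Of the values recomputed for named genes, 3657 kept their direction and side of the threshold, 162 lost the call, 5 gained it and 9 changed sign. The median of all genes was −0.10 under median centring. On day 7, deviations of same-numbered arrays correlated at −0.40 to 0.14 over 6 pairs of clones, 1 of them over 0.1. Over all 66 pairs of a clone and day the correlations ran from −0.40 to 0.47. KO J1 on day 0 correlated at 0.47 with KO J1 on day 3 and at 0.43 with WT J1 on day 0. Whether same-numbered arrays shared a batch was not tested. With the replicate block the day 7 comparison had 864 calls, the J1 pair 858, the difference of the pairs 487 and day 7 against day 3 506. Where arrays lie near the low end of the scale, as for microRNA genes, signal limits the size of a difference.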
